A study of Rattus norvegicus with 2 samples.

Results

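The 281 ZHX2 peaks described here are those that the authors' peak list places on chromosomes 10 (188 peaks) and 12 (93 peaks) of the rat. They make up 12.1% of the 2331 listed peaks, and the comparison set is the 2021 peaks on the other 18 autosomes. The study mapped ZHX2 by chromatin immunoprecipitation and sequencing (ChIP-seq) in cultured primary vascular smooth muscle cells (VSMCs), fixed with formaldehyde. The series has 1 library precipitated with an antibody to ZHX2 (called IP below) and 1 input library of sonicated chromatin set aside before the precipitation. The labels name no treatment, genotype or animal, both libraries come from the same kind of cells, and a peak list cannot show whether the cells express smooth muscle markers. With no replicates, no difference below carries a test, peaks are not replicates of one another, and intervals cover counting error or the spread over peaks only.

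ZHX2 belongs to the small family of nuclear proteins that carry both zinc fingers and homeoboxes, the latter being DNA-binding domains. It binds as a dimer with itself or with its relatives and is best known as a repressor of transcription, in liver above all for its effect on alpha-fetoprotein. VSMCs are the contractile cells of the arterial wall, which can leave that state to divide and to make matrix. Peaks of a transcription factor commonly lie near genes, so chromosomes that are rich in genes can hold more of them per base. Positions are given on rn6, the build named in the submitters' processing notes, as chromosome, first base and last base. No sequence or nearest gene of a peak is given, because no genome or annotation of that build was used here.

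The chromosomes were chosen by their number of peaks in this list, so the values of this paragraph describe the selection and were not tested. Over the length up to its last peak, chromosome 12 held 1.77 peaks per Mb (exact Poisson interval, 1.43 to 2.17) and chromosome 10 held 1.69 (1.46 to 1.95). The other autosomes together held 0.830 peaks per Mb, so chromosome 10 was 2.04 times and chromosome 12 was 2.13 times as dense. The nearest autosomes outside the selection were chromosome 20 with 1.25 peaks per Mb (0.971 to 1.57) and chromosome 19 with 1.11. The interval of chromosome 20 overlapped those of both selected chromosomes. Overlap of separate intervals cannot decide whether the densities differ, and the step between them was not tested. The Poisson intervals are too narrow as far as peaks lie in groups: the variance of the count per 1 Mb bin was 2.03 times its mean on chromosome 10 and 1.95 times on chromosome 12, against a median of 2.12 times over the other autosomes.

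**Figure D1:**
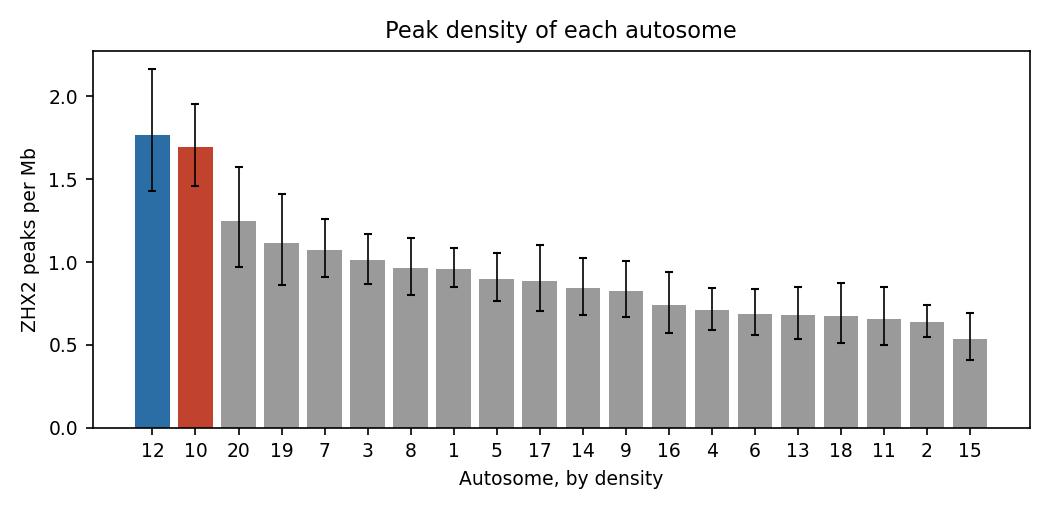
ZHX2 peaks per Mb (vertical axis) on each of the 20 autosomes, ordered by density, with exact 95% Poisson intervals as error bars. Chromosome 12 (blue, 1.77) and chromosome 10 (red, 1.69) stand highest, followed by chromosome 20 (1.25), whose interval overlaps theirs.

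Both selected chromosomes had more of their length occupied and more peaks in each occupied stretch. A peak summit was present in 66 of 112 bins of 1 Mb on chromosome 10 (58.9%) and in 34 of 53 on chromosome 12 (64.2%). On the other autosomes 41.5% of bins held a summit, with a range over chromosomes from 31.5% to 54.4%. An occupied bin held 2.85 peaks on average on chromosome 10 and 2.74 on chromosome 12, against 1.99 on the other autosomes, where the highest value was 2.31 on chromosome 7. The 2 components were of like size: the share of occupied bins was 1.42 times and the peaks per occupied bin 1.43 times that of the other autosomes on chromosome 10, and 1.54 and 1.38 times on chromosome 12. Both follow in part from the number of peaks that chose the chromosomes.

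The fullest 1 Mb bins of the selected chromosomes held no more peaks than those of some other autosomes. The fullest held 8 peaks on chromosome 10 and 7 on chromosome 12. On the other 18 autosomes the fullest bin of a chromosome held from 4 to 10 peaks, with a median of 7.5. Bins with 3 or more peaks were the class that was most extended, at 35.2% of all bins on both chromosomes together against 9.98% elsewhere, whereas bins with exactly 1 peak made up 17.0% against 21.01%. The fullest 10% of the 1 Mb bins held 32.0% of the peaks of the selected chromosomes (exact interval, 26.6% to 37.8%) and 49.1% of those of the other autosomes. Both this share and that of bins with 3 or more peaks depend on the mean number of peaks per bin. That number chose the chromosomes, and no correction for density was made. With the fullest 5 Mb bin of every chromosome left out, chromosome 10 still held 1.58 peaks per Mb (1.35 to 1.84), chromosome 12 held 1.64 (1.30 to 2.05) and the other autosomes 0.748. These densities rest on the counts that chose the chromosomes, so they describe the selection as well.

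**Figure D2:**
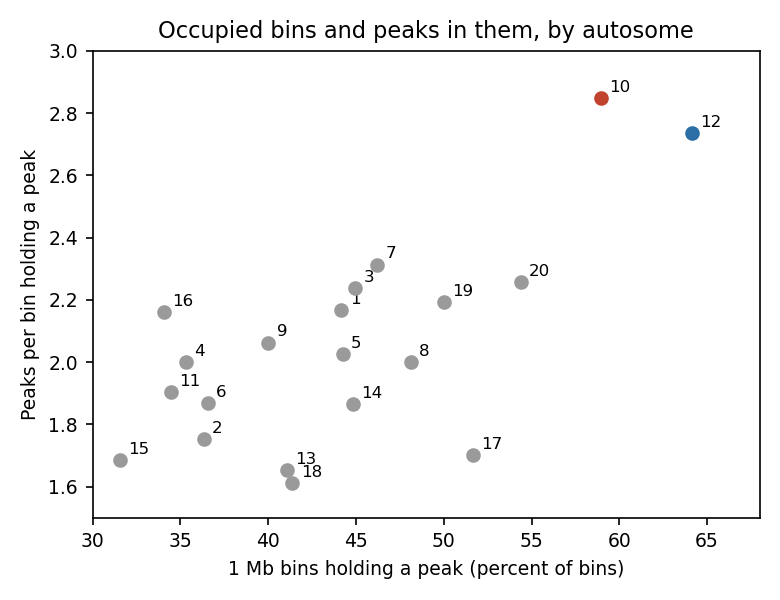
Share of 1 Mb bins that hold a peak summit (horizontal axis, percent) against the mean number of peaks in such a bin (vertical axis) for each of the 20 autosomes, numbered. Chromosomes 10 (58.9%, 2.85 peaks) and 12 (64.2%, 2.74 peaks) are the highest on both axes.

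Along chromosome 10 the peaks were concentrated in the second part of the chromosome. The first 50% of the span held 63 peaks, or 1.13 per Mb (0.871 to 1.45), and the second 50% held 125, or 2.25 per Mb (1.87 to 2.68), and these intervals do not overlap. In steps of 25% of the span, the density was 0.972, 1.30, 2.20 and 2.30 peaks per Mb. The first of these had an interval from 0.640 to 1.41 that takes in the 0.830 of the other autosomes, so the first 27.8 Mb were not resolved from an ordinary autosome by this count. The fullest 5 Mb bins of chromosome 10 were those from 55000001 to 60000000 with 20 peaks, from 10000001 to 15000000 with 18 and from 85000001 to 90000000 with 15. Together they held 28.2% of the peaks in 13.5% of the span. The bin that starts at 10000001 is the exception within the sparse first part: it held 18 of the 27 peaks of the first 25% of the span. At the other end of the scale, 5 of the 23 bins of 5 Mb held a single peak each.

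Chromosome 12 had no such gradient. Its first 50% held 46 peaks and its second 50% held 47, or 1.75 and 1.79 per Mb. In steps of 25% the density was 1.14, 2.36, 1.44 and 2.13 peaks per Mb, and each interval overlapped the others. The fullest 5 Mb bins were those from 45000001 to 50000000 with 15 peaks and from 10000001 to 15000000 and from 20000001 to 25000000 with 14 each. These 3 bins held 46.2% of the peaks in 28.5% of the span. Only 1 of the 11 bins of 5 Mb, from 5000001 to 10000000, held a single peak.

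**Figure D3:**
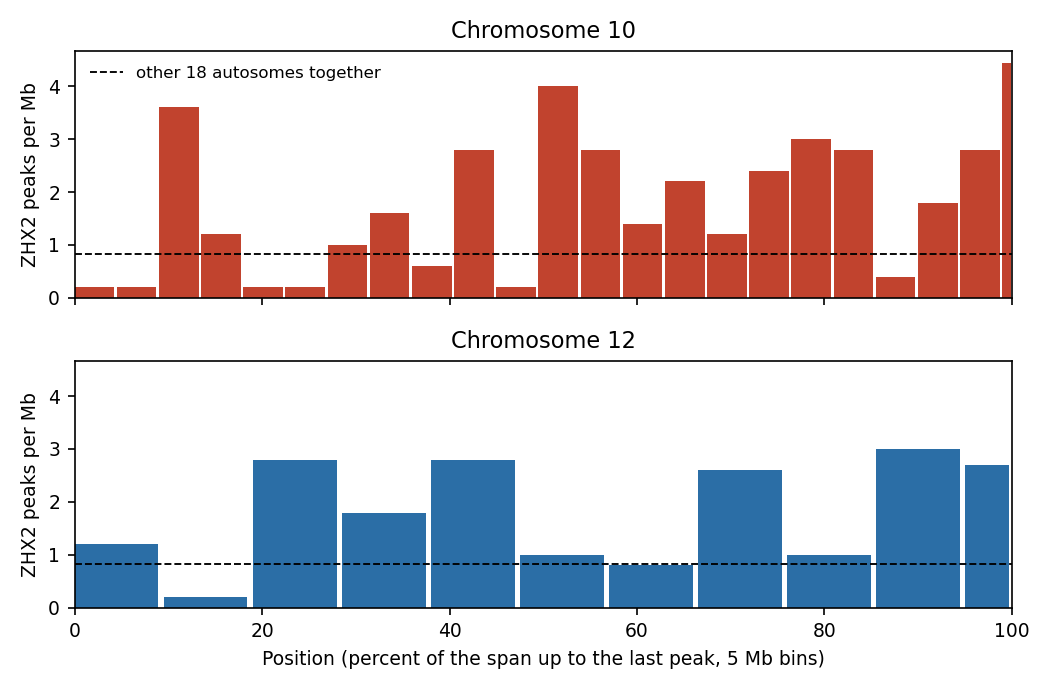
ZHX2 peaks per Mb in bins of 5 Mb (vertical axis) against position as a percent of the span up to the last peak (horizontal axis) for chromosome 10 (top, red) and chromosome 12 (bottom, blue); the last bin of each is shorter, and the dashed line is the 0.830 peaks per Mb of the other 18 autosomes together. On chromosome 10 the tall bars lie mostly in the second part, apart from the bin with 18 peaks near the start, while on chromosome 12 they are spread along the chromosome.

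Empty stretches remained on both chromosomes. Between neighbouring peaks, chromosome 10 had 11 gaps of over 2 Mb, which took up 42.7% of its span, and chromosome 12 had 8, which took up 45.2%. On the other autosomes such gaps took up 66.3% of the span. Per 100 Mb there were 9.90 such gaps on chromosome 10, 15.2 on chromosome 12 and 14.6 on the other autosomes. By number, such gaps were thus about as frequent on chromosome 12 as elsewhere. The longest gaps of chromosome 10 ran from 20658247 to 29367822 (8.71 Mb), from 1464851 to 7077516 (5.61 Mb) and from 97711285 to 103198322 (5.49 Mb). Those of chromosome 12 ran from 2555420 to 6956854 (4.40 Mb), from 32753846 to 36634189 (3.88 Mb) and from 6957504 to 9999961 (3.04 Mb). The longest gap of chromosome 12 was shorter than the longest of any other autosome, the next shortest being 5.95 Mb on chromosome 20. These are also the autosomes with the shortest spans, 52.6 Mb for chromosome 12 and 56.2 Mb for chromosome 20. A longest gap depends on span and on peak density, and no correction for either was made. Whether these stretches could be mapped by the reads was not analysed here.

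There were 4 peaks with more than 2 Mb of empty sequence on both sides, and they were not alike. On chromosome 12, the peak from 6956855 to 6957503 stood alone in 7.44 Mb between its neighbours and was among the strongest of its chromosome, with a fold enrichment of 15.6 and 110 IP tags at its summit. Here the fold is the peak caller's ratio of the IP at the summit to the local background, and tags are the sequenced reads or fragments that the caller counted, recovered from the deposited fold and p. The lone peak of chromosome 12 from 32753612 to 32753845 was weak by comparison, with a fold of 4.65 and 43 tags. On chromosome 10, the peak from 7077517 to 7077768 had a fold of 5.93 with 32 tags, and the peak from 97711066 to 97711284 a fold of 6.95 with 46 tags.

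Neighbouring summits lay a median of 210 kb apart on chromosome 10 (95% interval of the median, 156 to 306 kb) and 205 kb on chromosome 12 (121 to 349 kb), against 421 kb on the other autosomes (380 to 459 kb). The shorter spacing tracks the density. Divided by the spacing that the same number of peaks would have if placed evenly, the median was 0.356 on chromosome 10, 0.362 on chromosome 12 and 0.350 on the other autosomes. By this measure alone, the peaks were about as unevenly placed relative to their number as elsewhere. The value of the other autosomes pools chromosomes of unlike density, from 0.536 to 1.25 peaks per Mb, so it is no close match.

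At a short range, 23 of 188 summits on chromosome 10 (12.2%) and 11 of 93 on chromosome 12 (11.8%) had another within 10000 bp. The share over both chromosomes was 12.1% (exact interval, 8.53% to 16.5%), against 7.62% on the other autosomes (6.50% to 8.86%), and the 2 intervals overlap slightly. At 1000 bp the order was the other way, with 2.14% against 3.07%. Within 0.1 Mb the shares were 60.5% (54.5% to 66.3%) and 38.1%. A denser chromosome has more close neighbours for that reason alone, and no correction for density was made.

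Joining peaks whose summits lay within 500 kb of the next, a distance set after the list had been seen, gave 11 runs of 5 or more peaks on chromosome 10 and 5 on chromosome 12. These runs held 48.9% of the peaks of chromosome 10 in 11.4% of its span, and 45.2% of those of chromosome 12 in 10.9%. On the other autosomes runs of this size held 33.0% of the peaks in 3.67% of the span. If placed evenly, peaks would lie 583 kb apart on the selected chromosomes and 1205 kb apart on the others. A fixed joining distance thus gives larger runs on denser chromosomes for that reason alone, and no correction for density was made. The longest run by number on chromosome 10 had 13 peaks from 12994176 to 14635610, with folds from 5.00 to 16.4. That of chromosome 12 had 14 peaks from 46316136 to 48628616 and held, near its end, the strongest peak of both chromosomes. The longest run elsewhere, with 19 peaks, exceeded both.

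The closest pair on chromosome 10 was 500 bp apart by summit, with 129 bp between the peak from 94406929 to 94407237 (fold 9.44, 54 tags) and the peak from 94407367 to 94407695 (fold 7.36, 71 tags). The pair had its higher fold and its higher tag number in different members, since the fold also depends on the local control. In the next pair of chromosome 10, 998 bp apart, the peak from 56276865 to 56277171 had a fold of 9.22 and 138 tags and its neighbour from 56275839 to 56276140 a fold of 6.48 and 39 tags. The third pair, 1024 bp apart, joined a peak from 55444762 to 55445126 (fold 11.4, 113 tags) with one from 55445889 to 55446099 (fold 5.17, 25 tags). In both of these pairs the members differed widely in tags.

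On chromosome 12 the closest pair was 456 bp apart, from 38273991 to 38274240 (fold 5.05, 32 tags) and from 38274391 to 38274723 (fold 7.07, 68 tags). The second pair, 1013 bp apart, held the strongest peak of the chromosome, from 48627071 to 48627522, beside a peak from 48628131 to 48628616 with a fold of 8.32 and 81 tags. The third, 1670 bp apart, joined a peak from 36636415 to 36636625 (fold 4.66, 22 tags) with one from 36638112 to 36638471 (fold 6.79, 67 tags). The first of those peaks also had a neighbour on its other side, 2079 bp away by summit, so 3 peaks lay within a few kb.

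The typical peak on the dense chromosomes was about as wide as elsewhere. The median width was 297 bp on chromosome 10 (95% interval of the median, 283 to 316 bp), 294 bp on chromosome 12 (277 to 328 bp) and 296 bp on the other autosomes (292 to 302 bp). Peaks covered 61.1 kb of chromosome 10 and 32.5 kb of chromosome 12. Per Mb this was 0.571 kb for both together against 0.269 kb elsewhere. On chromosome 10 the covered length per Mb and the peaks per Mb were both 2.04 times those of the other autosomes. On chromosome 12 they were 2.29 and 2.13 times, so the covered length there exceeded the others by somewhat more than the number of peaks did. The upper quartile of the width was 367 bp on chromosome 10, 394 bp on chromosome 12 and 369 bp on the other autosomes.

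The summit held a median of 58 IP tags on chromosome 10 (53 to 64), 59 on chromosome 12 (53 to 68) and 56 on the other autosomes (54 to 58), and these intervals overlap. The range was from 24 to 169 tags on chromosome 10 and from 21 to 233 on chromosome 12. The recovered local background had the same median, 0.422 control tags over a position, in all 3 sets. It was set by at least 1 control tag over the summit itself in 32.4% of the 281 peaks (26.9% to 38.2%) and in 26.8% of the others (24.8% to 28.8%). It was at the lowest level used by the caller in 10.7% (7.32% to 14.9%) and 14.9% (13.4% to 16.6%). Both differences lie in the direction of more input tags near the summits of chromosomes 10 and 12, with intervals that overlap; the part of input depth in the number of peaks was not tested.

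The fold differed little, and its order depended on how it was computed. The median deposited fold was 7.60 on chromosome 10 (7.21 to 8.03), the highest of the 20 autosomes, and 6.89 on chromosome 12 (6.27 to 8.11), which ranked 17. On the other autosomes together it was 7.17 (7.05 to 7.26), with chromosome medians from 6.73 to 7.48. Without the caller's pseudocount of 1, the depth-scaled IP to control ratio had a median of 24.7 on chromosome 10, 23.8 on chromosome 12 and 26.1 on the other autosomes, so chromosome 10 then lay below the others. The 95% intervals of these medians overlap, from 21.8 to 29.3, from 17.6 to 28.4 and from 24.1 to 28.2. Among peaks with a −log10 q of at least 5, the median fold of chromosome 12 was 8.71 against 8.18 on the other autosomes, so chromosome 12 then lay above them. The place of either chromosome by fold was thus not settled.

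Strong and weak peaks were both more frequent per Mb. On chromosome 10, 40 peaks (21.3%) had a fold of at least 10, as did 21 on chromosome 12 (22.6%), where the share over the whole list was 19.9%. Over both chromosomes the share was 21.7% (17.0% to 27.0%), near that background. Per Mb, peaks of at least this fold were 2.21 times as frequent on chromosome 10 and 2.45 times on chromosome 12 as on the other autosomes, and peaks below it 1.997 and 2.05 times. All peaks together were 2.04 and 2.13 times as dense. The ratios for strong and weak peaks contain the number of peaks that chose the chromosomes, so they describe the selection as well. Only 1 peak on each chromosome exceeded a fold of 20. Among the 100 peaks with the highest −log10 q of the whole list, 9 lay on chromosome 10 and 3 on chromosome 12, where shares in proportion to all peaks would be 8.07 and 3.99.

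**Figure D4:**
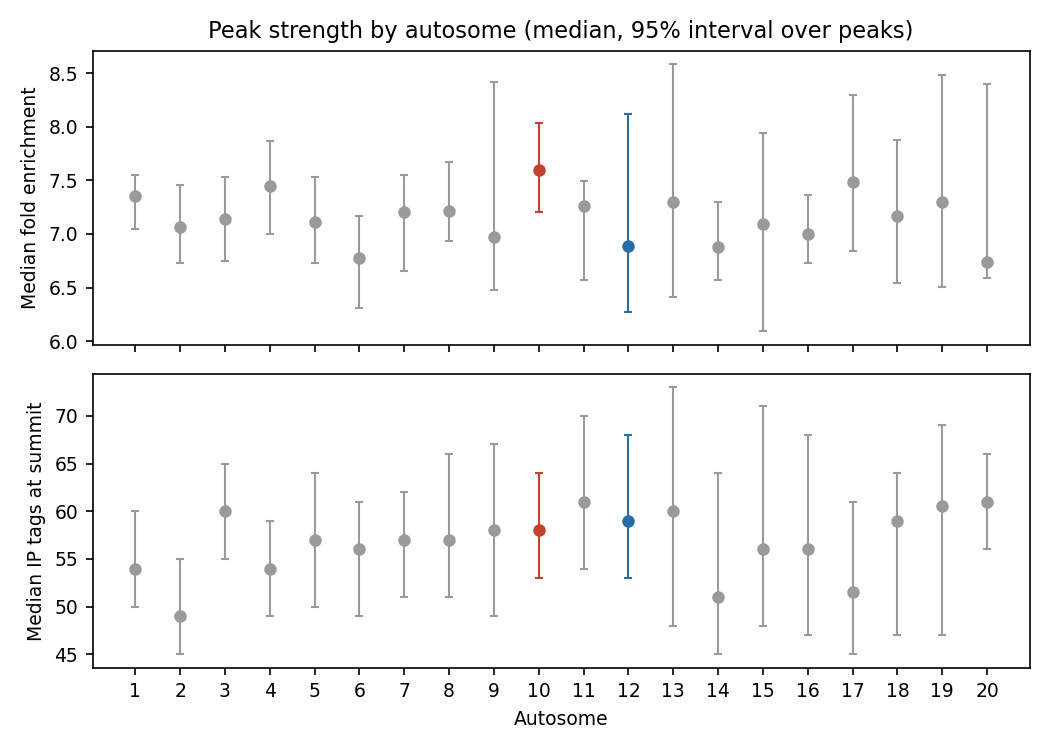
Median deposited fold enrichment (top) and median IP tags at the summit (bottom) of the peaks on each of the 20 autosomes, with 95% intervals of the median over peaks. Chromosome 10 (red) has the highest median fold, 7.60, and chromosome 12 (blue) one of the lowest, 6.89; their median tags, 58 and 59, lie within the range of the other autosomes.

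Within chromosome 12 the peaks near its start were the stronger ones. In the first 25% of the span, 7 of 15 peaks (46.7%) had a fold of at least 10, and the median fold was 9.92 (6.89 to 10.8). In the last 25% it was 4 of 28 peaks (14.3%), with a median fold of 6.21 (5.78 to 7.77). The intervals of these medians overlap, and the split was examined after the values were seen. In the 3 fullest 5 Mb bins of chromosome 12 the median fold was 6.27, against 7.61 in the rest of it. On chromosome 10 the order was the other way, with 8.03 in the 3 fullest bins and 7.47 in the rest. The intervals overlap on both chromosomes, so crowding and strength had no common direction.

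The strongest peak of chromosome 10 by −log10 q lay from 83128637 to 83129338, with its summit at 83129086. It was also the widest of the chromosome, at 702 bp, and had the highest fold, 22.04, with a −log10 q of 38.1 and 133 IP tags. Its background was that of 1 control tag in 1000 bp, so the ratio of 122 without the pseudocount has an exact interval from 21.5 to 4846. In the whole list it ranked 20 by −log10 q and 65 by tags.

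The next 4 by −log10 q on chromosome 10 had folds from 16.4 to 18.7 and −log10 q values from 27.7 to 31.2. They lay from 91217252 to 91217862 (146 tags), from 14542962 to 14543369 (169 tags), from 11723716 to 11724315 (112 tags) and from 90983770 to 90984219 (89 tags). The first and last of these belong to the same run of 4 peaks, joined at 500 kb. By tags, the peak from 14542962 was the highest of the chromosome. The peak from 64398158 to 64398508 came second with 157 tags but reached a fold of only 7.83, because 3 control tags lay over its summit. The peaks from 11901683 to 11902042 (145 tags, fold 9.67) and from 56276865 (138 tags, fold 9.22) each had 2 control tags there. The peak with the lowest −log10 q of chromosome 10, 2.30, lay from 37209822 to 37210032, with the smallest width of the list (211 bp), a fold of 4.20 and 60 tags over 2 control tags. It thus held more tags than the median peak, and its low rank came with its control.

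On chromosome 12 the peak from 48627071 to 48627522, with its summit at 48627310, had a fold of 29.6, 174 tags and a −log10 q of 57.5, and ranked 2 in the whole list by −log10 q. It is also the only peak of the chromosome with a fold of at least 20. The second, from 18752064 to 18752918, was 855 bp wide and had the most tags of both chromosomes, 233, which ranked 4 in the list. Its fold was 15.3 and its −log10 q was 38.5, with 2 control tags over the summit. Before it lay the widest peak of the whole list, from 18531083 to 18532235 (1153 bp), with 162 tags, 2 control tags and a fold of 10.8. Both lie in a run of 5 peaks from 18516756 to 19313352 that also holds the peak with the lowest −log10 q of the chromosome, 2.30, from 18516756 to 18517032 (fold 4.26, 61 tags over 2 control tags).

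The other 3 of the 5 highest by −log10 q on chromosome 12 lay from 24669229 to 24669756 (fold 17.3, 103 tags), from 6956855 to 6957503, the lone peak described above, and from 30440622 to 30441033 (fold 15.02, 81 tags). The last had the caller's lowest background, and the peak from 90983770 on chromosome 10 was of the same kind. By tags, the peaks from 50315688 to 50316213 (152 tags, fold 10.1) and from 40509635 to 40509976 (123 tags, fold 9.21) completed the highest 5. The peaks named for their tags and not for their −log10 q each had 2 or 3 control tags over the summit or, for that from 40509635, 8 control tags in 1000 bp.

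The fullest 1 Mb bin of chromosome 10, from 56000001 to 57000000, held 8 peaks between 56186786 and 56600792. Their folds ran from 6.20 to 11.7, their tags from 31 to 138 and their widths from 240 to 447 bp, and 2 of them reached a fold of 10. That of chromosome 12, from 47000001 to 48000000, held 7 peaks between 47024258 and 47921117, with folds from 5.32 to 13.1, tags from 31 to 105 and widths from 224 to 556 bp, of which 1 reached a fold of 10. Neither bin held any of the 5 highest peaks of its chromosome by −log10 q, although the peak from 56276865 in the first ranked 5 by tags.

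The dense chromosomes were also the richest in genes. Counted in the RefSeq gene table of the GRCr8 assembly, which is not the build of the peaks and was used for whole chromosomes only, chromosome 10 had 16.6 protein-coding genes per Mb and chromosome 12 had 12.9. They ranked first and second of the 20 autosomes, and the others lay between 5.55 and 11.7. Across the 20 autosomes, peaks per Mb and protein-coding genes per Mb had a Spearman correlation of 0.913 and a Pearson correlation of 0.912. Without chromosomes 10 and 12 the values were 0.882 and 0.890 over 18 autosomes. These describe chromosomes that share a library, and no fit separated gene density from other properties that go with it. On GRCr8, 13 peaks of chromosome 10 and 3 of chromosome 12 would lie past the last gene. A chromosome can thus differ between the 2 builds. This limits every value that sets peaks against genes, and it was not corrected for.

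Counted per protein-coding gene instead of per Mb, the 2 chromosomes ranked apart, which was not so with all genes (below). Chromosome 10 held 188 peaks for 1788 protein-coding genes, or 10.5 peaks per 100 (exact Poisson interval, 9.07 to 12.1), against 10.3 on the other autosomes (9.83 to 10.7). It ranked 12 of 20, so its peaks were about as frequent per protein-coding gene as elsewhere. Chromosome 12 held 93 peaks for 672 genes, or 13.8 per 100 (11.2 to 17.0). It ranked 2 of 20 behind chromosome 14 (14.04 per 100), at 1.35 times the value of the other autosomes. The peak counts in these values are those by which the chromosomes were chosen, so the values per gene are a description as well, and their intervals support no difference. The intervals of chromosomes 10 and 12 overlap, and the difference between these 2 chromosomes was not tested.

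The result per gene depended on which genes were counted. With all genes of the table, RNA genes and pseudogenes included, chromosome 10 was 1.27 times and chromosome 12 was 1.30 times as high as the other autosomes, and they ranked 3 and 1. With unnamed loci and the large odorant and vomeronasal receptor families left out of the protein-coding genes, the values were 0.956 and 1.22 and the ranks 15 and 2. Chromosome 10 therefore lay on either side of the other autosomes according to the gene class, and chromosome 12 lay above them in each.

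The promoters of the protein-coding genes, taken from RefSeq as 300 bases around each start on GRCr8, had a mean GC content of 57.3% on chromosome 12, the highest of the autosomes, and of 56.8% on chromosome 10, which ranked 5. The other autosomes ranged from 53.1% to 57.2%. There were 1594 such promoters for 1788 genes on chromosome 10 and 717 for 672 on chromosome 12. Promoters thus did not match genes 1 to 1, and the means cover unlike parts of the genes. The mean number of CG dinucleotides per promoter was 16.1 on chromosome 12 and 15.8 on chromosome 10, within the range of 12.9 to 17.6 elsewhere. Promoter GC content had a Spearman correlation of 0.370 with peaks per Mb over the 20 autosomes and of 0.179 without chromosomes 10 and 12. CG dinucleotides per promoter had one of 0.260 with peaks per Mb, but of 0.756 with peaks per 100 protein-coding genes (0.746 without chromosomes 10 and 12), a relation singled out after its value was seen among 48 computed. Whether the peaks lie at such promoters was not analysed here.

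**Figure D5:**
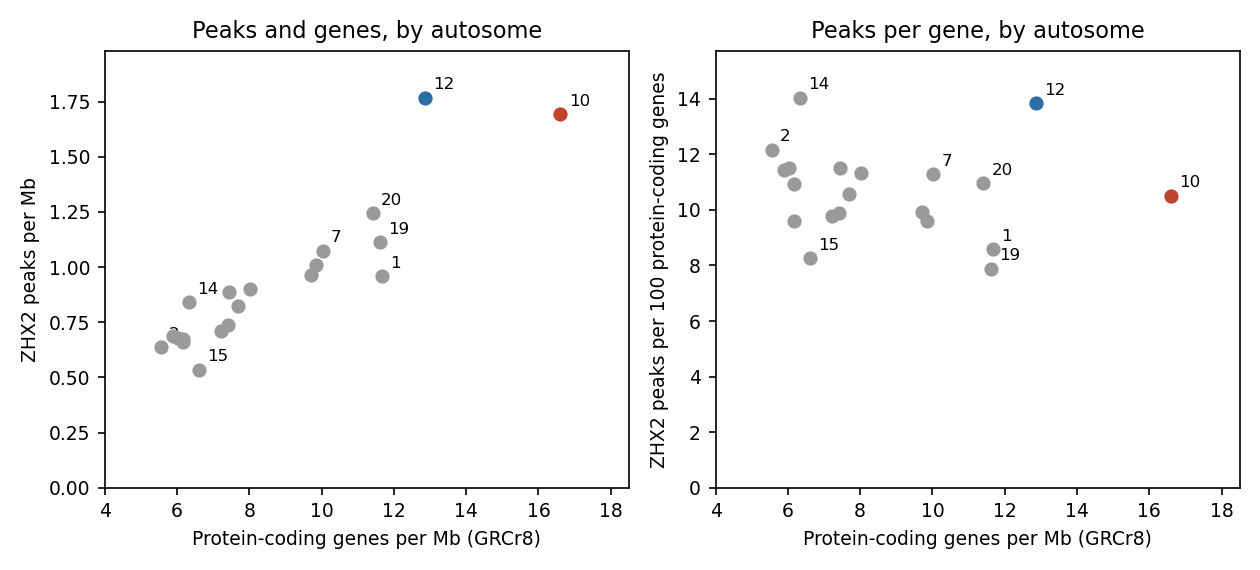
ZHX2 peaks per Mb (left) and per 100 protein-coding genes (right) against protein-coding genes per Mb in GRCr8 (horizontal axes) for each of the 20 autosomes, some of them numbered. Chromosomes 10 (red) and 12 (blue) are the richest in both genes and peaks per Mb; per gene, chromosome 10 (10.5) lies among the other autosomes and chromosome 12 (13.8) near the highest, chromosome 14 (14.04).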

How the data were processed

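The IP and input libraries were sequenced from cultured rat VSMCs; the file analysed is the authors' peak list of the IP. The submitters' processing notes name Trimmomatic 0.36, STAR 2.5.3a, MACS2 2.1.1 and the build rn6, without their roles or settings. The deposited columns are a fold enrichment (the ratio of IP to local background where the peak is highest), p-value and q-value as −log10, the summit position and a score that repeats the −log10 q and was not used. The deposited list gives no library depth.

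IP tags and background were solved from the deposited fold and p under the MACS formulas (pseudocount 1, Poisson upper tail of the scaled tags). A scaling of 0.193 gave whole tags for 100% of peaks; with the next best factor 56.2% matched. The backgrounds were read as control tags over the summit, in 1000 bp or in 10000 bp with a fragment size of 211 bp, the smallest peak width, and 100% fell on such levels. On 3 simulated lists, 100% of tags were recovered. Those lists were drawn under the same formulas and kinds of background, so they check the solving only. They cannot show whether the deposited values follow these formulas.

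Bins of 1 and 5 Mb start at base 1, spans end at the last peak, and gaps run between peak edges. Intervals are at 95%: exact Poisson for densities, Clopper-Pearson for shares and for ratios (Poisson at the lowest background), order statistics for medians. No test was made, with 1 library a group. Gene counts came from GRCr8, on which 16 of the 281 peaks would lie past the last gene of their chromosome, so no position was used. Planned results at transcript starts and on chromosome lengths need rn6 and were not computed. Peaks named are, per chromosome, the 5 highest by −log10 q and by tags, the widest, the weakest, the 3 closest pairs, the fullest 1 Mb bin, the 3 fullest 5 Mb bins and the 3 longest gaps; peaks with 2 Mb empty on both sides were added after their values were seen. Members and rules were chosen with earlier results of these data known. Python 3.11.15, scipy 1.17.1 and pandas 2.3.3 were used.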

Additional observations from a re-analysis of the deposited data

How the results depend on the processing

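The alternatives gave 54 values, of which 27 stayed inside the interval of the reported one, within 1.5 times a count or within 0.1 of a correlation, 23 moved and 4 changed side against the other autosomes; those per gene, and those on the fold of each chromosome, were chosen after seeing the data. Peaks with a −log10 q of at least 5 (200 of the 281) gave 1.22 peaks per Mb, 1.13 without the fullest 5 Mb bins, a median spacing of 304 kb, width of 323 bp, fold of 8.59 and 68.5 tags, all by leaving out weak peaks. The 25% of peaks with the highest fold gave 0.507 peaks per Mb and a spacing of 777 kb, but a density of 2.39 (chromosome 10) and 2.71 times (chromosome 12) that of the other autosomes, and per protein-coding gene 1.20 and 1.72 times; the cause was not tested. Bins of 500 kb left 55.02% empty and put 41.6% of peaks in the fullest 10%, and bins of 2 Mb left 19.3% empty. Summits with another nearby were 7.47% at 5 kb, 60.5% at 0.1 Mb and 8.36% with peaks within 1000 bp counted as 1. There were 42 gaps over 1 Mb, 19 over 2 Mb and 11 over 3 Mb. The median fold of 7.37, above the others' 7.17, became a ratio of 24.7 without the pseudocount, below their 26.1; chromosome 10 alone also changed side, from 7.60 to 24.7. Chromosome 12 changed side from 6.89 to 8.71 (others, 8.18) at a −log10 q of at least 5, and chromosome 10 per gene from 1.02 to 0.956 without unnamed and receptor genes. No paired analysis was possible because there is a single library of each kind; none could be left out. Alternatives that need rn6 were not run. The sparse control, at 0.193 tags per IP tag, limits every fold.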
